A study of Mus musculus with 6 samples.

Results

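The angiopoietin and Tie receptor system was followed through 5 genes of the 19937 measured: the receptor genes Tek and Tie1, the ligand genes Angpt1 and Angpt2, and the phosphatase gene Ptprb. They were chosen by name, with earlier results of these data known. Each was measured by a single probe set that the platform annotation assigns to 1 gene. The probe sets were 10505954 for Tek, 10515771 for Tie1, 10428376 for Angpt1, 10577315 for Angpt2 and 10366476 for Ptprb. The cells came from CD1 mouse embryos, from the aorta, gonad and mesonephros region at E11.5, dissociated with 0.1% collagenase, and the labels call the time T0. Both populations carried CD31 and lacked CD45 and Ter119. What set them apart was the stem cell factor receptor c-kit, carried by the cells written here as Ckit+ (c-kit-positive, 3 samples) and lacking on those written as Ckit- (c-kit-negative, 3 samples), with 1 array a sample. The replicates are labelled biological, with no statement of how many embryos each held, so p-values measure the spread between these samples.

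Angiopoietins are secreted proteins that bind the receptor tyrosine kinase Tie2, the product of Tek, on endothelial cells. Angiopoietin-1 activates Tie2 and steadies vessels, and is made largely by perivascular, mesenchymal and some blood cells. Angiopoietin-2, made by activated endothelium, can oppose or replace it depending on the setting. Tie1 binds no angiopoietin with high affinity and modulates Tie2 signalling from the same membrane. VE-PTP, the product of Ptprb, is an endothelial receptor phosphatase that removes phosphate from Tie2 and protects the VE-cadherin junction. Tie2 is also found on early blood stem cells.

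Promoter sequence was held in the RefSeq table (GRCm38.p6) for 2 of the members, the receptor genes Tek and Tie1. Both fell in the values below, by unequal amounts. It was searched on both strands for GGAA, the core bound by ETS factors, which many endothelial promoters use, and the matches are in capitals (TTCC where the match lies on the other strand). The 250 bases before the Tie1 start, chr4:118489850-118490099 on the minus strand, held 7 matches, between 16 and 231 bases before the start, and are shown in full.
Tie1: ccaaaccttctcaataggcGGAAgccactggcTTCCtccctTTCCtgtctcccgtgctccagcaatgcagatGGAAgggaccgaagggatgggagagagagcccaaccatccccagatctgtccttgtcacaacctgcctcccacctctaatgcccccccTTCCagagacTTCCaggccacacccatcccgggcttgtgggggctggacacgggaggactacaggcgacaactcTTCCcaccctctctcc
The 250 bases before the Tek start held 2 matches, 89 and 59 bases before it. That window overlaps the annotated span of the gene, so only 20 bases around each match are shown, chr4:94739192-94739211 and chr4:94739222-94739241 on the plus strand.
Tek at 89 bases: ttattcaaTTCCtggcctat
Tek at 59 bases: ccctattgTTCCtgaaaatg

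Of the 32851 promoters in that table, 93.4% held at least 1 GGAA, 76.8% at least the 2 of Tek and 3.82% at least the 7 of Tie1. CACCC, a core of KLF factors, matched 1 time before Tek and 2 times before Tie1, and 52% of promoters held it. No match was found in either window for TGATAA, searched as a core of GATA-binding factors and held by 7.94% of promoters. The same was so for the forkhead core TGTTTAC, held by 3.17%, and for ACGTG, a core of hypoxia-inducible factors, held by 16.6%. None of these motifs contains another. A match is a run of letters and does not show that a factor binds there.

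The sort gate was read from its own genes first. Kit was at 9.59, 9.54 and 9.53 in Ckit+ and at 8.27, 8.21 and 8.19 in Ckit- replicates 1, 2 and 3 (log2), which is the order the labels give. Pecam1, which encodes CD31, was at 9.13 ± 0.16 and 10.02 ± 0.02 (SD, n = 3 each), and Ptprc, which encodes CD45, at 8.52 ± 0.13 and 8.75 ± 0.60. Kit in Ckit- cells and Ptprc in both populations were thus far above the array medians given next, although the gate excluded c-kit and CD45 there. The reason was not tested. Values are log2 RMA values with array medians of 5.42 to 5.52, and they carry no zero and no detection call. It is therefore not known whether a value near or below those medians lies above array background. This holds for Tek, Tie1 and Ptprb in Ckit+ cells (means of 5.32, 5.88 and 5.40, with Tie1 at 5.23 in replicate 1). It also holds for Angpt2 (5.39 in Ckit+ and 5.89 in Ckit- cells). Folds are ratios of the values as measured, with no correction for background. Among the markers of cells the gate could hold, all 22 pan-endothelial genes were lower in Ckit+ cells, or 19 to 22 with 1 array left out. The panel's mean level was 5.86 to 6.07 in Ckit+ and 8.35 to 8.44 in Ckit- cells. Fewer cells of a type and less RNA per cell cannot be told apart in these bulk samples.

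The receptors and the phosphatase were far lower in Ckit+ cells, whereas neither ligand passed the test. Tek and Ptprb were each 10.9-fold lower and Tie1 was 4.95-fold lower. Angpt1 had the higher mean in Ckit+ cells by 1.90-fold and Angpt2 the lower by 1.41-fold, both short of the threshold. In all 3 members fell, 0 rose and 2 did not pass (limma, Benjamini-Hochberg adjusted p under 0.05 over all 19937 genes), where 4.7% of all genes fell and 2.71% rose. The members' median difference was -2.31 on the log2 scale, beside 0.07 for all genes.

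Tek, the angiopoietin receptor, stood at 5.41, 5.26 and 5.28 in Ckit+ replicates 1, 2 and 3 and at 8.67, 9.03 and 8.58 in Ckit- replicates 1, 2 and 3 (log2). The 6 values formed separate sets with a gap of 3.17 between the nearest arrays, and the Ckit+ values spread over only 0.15. The difference was -3.44 ± 0.16 (SE), with a 95% interval of -3.81 to -3.08 (adjusted p = 1.77e-05, limma). That interval, not adjusted for the number of genes, corresponds to a fall of 8.47-fold to 14.0-fold.

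Tie1, the partner receptor, stood at 5.23, 6.18 and 6.24 in Ckit+ and at 8.07, 8.27 and 8.24 in Ckit- replicates 1, 2 and 3. The Ckit- values lay within 0.20 of each other, while the Ckit+ values spread over 1.01, with replicate 1 well under the other two. The groups did not overlap, with a gap of 1.83. The difference was -2.31 ± 0.26 (SE, 95% interval -2.90 to -1.71, adjusted p = 0.0014, limma). With 1 array left out it ran from -2.48 to -1.98, and it passed each time. Without variance moderation the adjusted p was 0.0760 for the same difference, which did not pass.

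Ptprb, whose phosphatase acts on Tie2 and on VE-cadherin complexes, stood at 5.66, 5.08 and 5.45 in Ckit+ and at 8.76, 9.07 and 8.70 in Ckit- replicates 1, 2 and 3. The populations were again apart on every array, by 3.04 at the nearest. The difference was -3.45 ± 0.19 (SE, 95% interval -3.87 to -3.02, adjusted p = 3.55e-05, limma). By size of fall Ptprb and Tek held places 28 and 29 among the 19937 genes, and Tie1 place 120.

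Angpt1, the activating ligand, stood at 6.91, 7.83 and 7.56 in Ckit+ and at 5.77, 7.14 and 6.61 in Ckit- replicates 1, 2 and 3. The groups overlapped, because Ckit- replicate 2 lay above Ckit+ replicate 1. The SD was 0.47 in Ckit+ and 0.69 in Ckit- cells. The difference of 0.93 ± 0.36 (SE, 95% interval 0.11 to 1.74) had an unadjusted p of 0.0301 and an adjusted p of 0.177 (limma).

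Angpt2, the context-dependent ligand, stood at 5.37, 5.65 and 5.13 in Ckit+ and at 5.95, 5.89 and 5.81 in Ckit- replicates 1, 2 and 3. The groups did not overlap, but the gap was only 0.16. The difference of -0.50 ± 0.16 (SE, 95% interval -0.87 to -0.13) had an unadjusted p of 0.0143 and an adjusted p of 0.116 (limma). In total the groups of 4 members did not overlap, all with Ckit- above. Among all genes 26.8% did not overlap, 10.6% with Ckit- above and 16.2% with Ckit+ above.

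**Figure D1:**
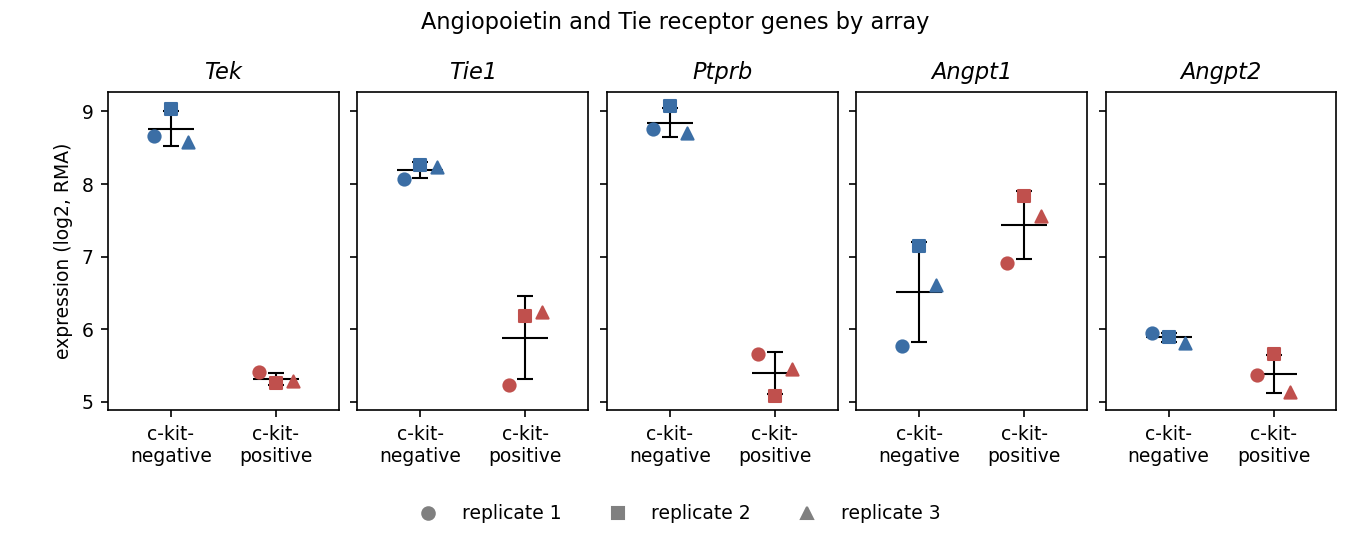
Expression (log2, RMA) of Tek, Tie1, Ptprb, Angpt1 and Angpt2 on each of the 6 arrays, with blue for Ckit- and red for Ckit+ cells, the marker shape giving the replicate number, the horizontal line the mean and the bar the SD (n = 3). Tek, Tie1 and Ptprb lie above 8 in Ckit- and below 6.3 in Ckit+ cells, whereas the Angpt1 values of the populations overlap.

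The members were next set against endothelial genes of the same arrays, since these fell as a whole. The mean of the 22 pan-endothelial genes, none of them a member, differed by -2.43 on the log2 scale, or 5.40-fold lower in Ckit+ cells, and the genes ran from -4.87 (Kdr, the main VEGF receptor) to -0.72 (Nos3, the endothelial nitric oxide synthase, named after its value was seen). Only 4 of the 22 fell further than Tek and Ptprb, namely Cdh5, which encodes VE-cadherin, the sialomucin gene Emcn, Kdr and Ramp2, a co-receptor subunit for adrenomedullin. For Tie1 the number was 9. Tek, Ptprb, Kdr and Ramp2 lay below the array medians in Ckit+ cells (means of 5.32, 5.40, 4.93 and 4.92). Emcn lay slightly above them (5.76) and Cdh5 further above (6.48). Without a detection call the order of falls to levels near or below the medians is uncertain. That limit also bears on the values relative to the panel mean that follow.

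Relative to the panel mean on the same array, Tek was at -0.54, -0.81 and -0.58 in Ckit+ and at 0.32, 0.64 and 0.14 in Ckit- replicates 1, 2 and 3. The populations differed in this value by -1.01 (pooled SD 0.20), with no overlap between the groups. Ptprb gave nearly the same value, -1.01 (pooled SD 0.30), also without overlap. Tie1 differed from the panel by 0.13, less than the pooled SD of 0.41, and its groups overlapped (exact permutation test, two-sided, p = 0.8). With 1 array left out that value of Tie1 ran from -0.10 to 0.45.

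Because the panel itself differed by -2.43, a gene at one level in both populations also comes out higher in Ckit+ cells by that size on this scale. The ligands were thus higher relative to the panel, which does not show that either rose. Angpt2 was 1.93 higher relative to the panel in Ckit+ cells (pooled SD 0.13) and Angpt1 3.36 higher (pooled SD 0.57), each without overlap. The value of Angpt2 was thus smaller than the fall of the panel, and that of Angpt1 larger. For Tek, Ptprb, Angpt1 and Angpt2 the exact permutation p was 0.1, the smallest that 3 against 3 arrays allow (0.125 adjusted over the 5 members), so none could pass 0.05. With the median of the panel in place of its mean, the value of Tek became -1.25, that of Angpt2 1.69 and that of Tie1 -0.11.

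**Figure D2:**
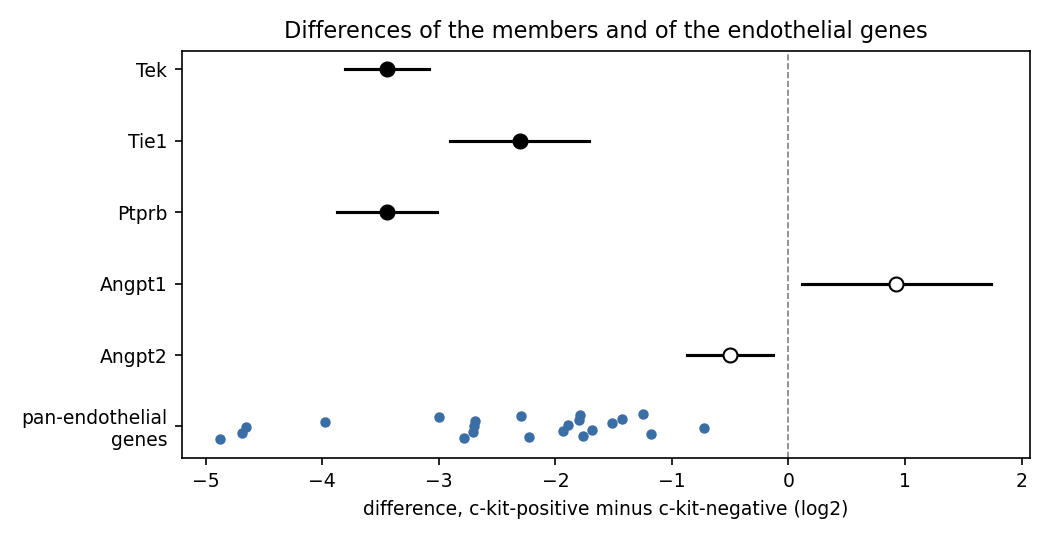
Difference between the populations (Ckit+ minus Ckit-, log2) for each member, with its 95% interval from limma, filled where the adjusted p was under 0.05, and, in blue, for each of the 22 pan-endothelial genes, set at slightly different heights to separate the points. Tek and Ptprb coincide at -3.44 and -3.45, Tie1 lies within the bulk of the endothelial genes, and Angpt1 and Angpt2 lie to the right of them all.

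**Figure D3:**
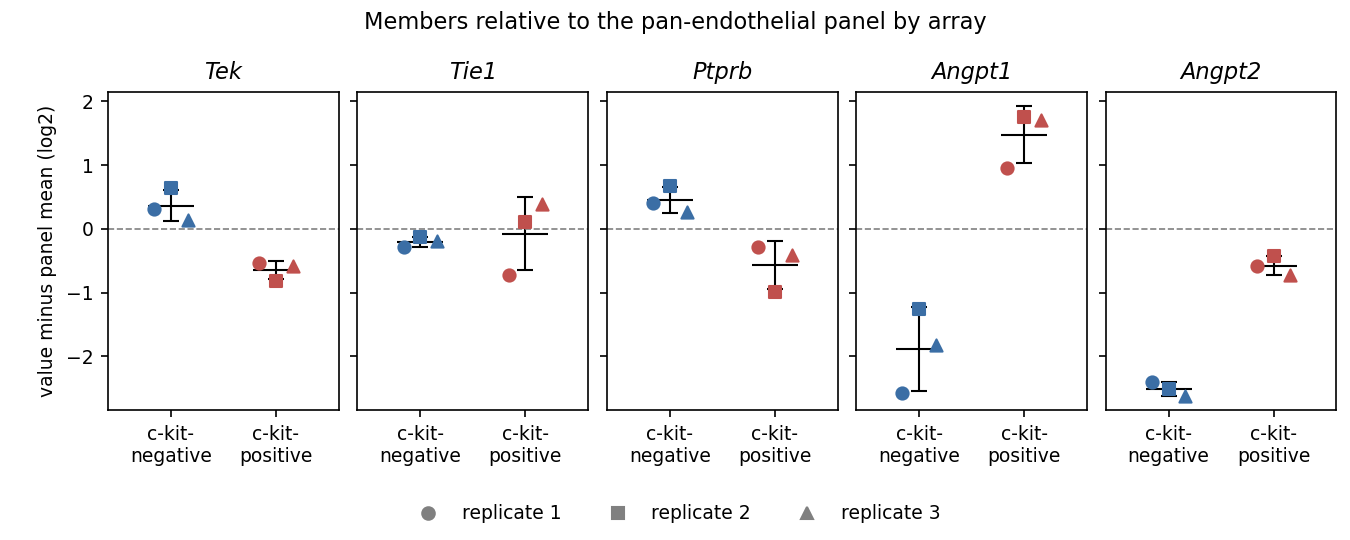
Value of each member minus the mean of the 22 pan-endothelial genes on the same array (log2), with colours, shapes, means and SD bars as in the plot of expression by array and a dashed line at 0. Angpt1 moves from between -2.58 and -1.26 in Ckit- cells to between 0.96 and 1.76 in Ckit+ cells. The Tie1 values overlap, between -0.28 and -0.13 in Ckit- and spread from -0.72 to 0.38 in Ckit+ cells.

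The members were also compared pairwise within each array, which removes any factor common to an array. Of the 10 pairs, 9 had values that did not overlap between the populations. Each had an exact permutation p of 0.1, again the smallest possible (0.111 adjusted over the 10 pairs), so none could pass. The pairs reuse members whose own differences were already unequal, from -3.45 for Ptprb to 0.93 for Angpt1. No share among random gene pairs was computed, so whether 9 of 10 is unusual was not tested. Tie1 minus Ptprb came nearest to overlap, at -0.43 in Ckit+ replicate 1 and -0.46 in Ckit- replicate 3. The pair that overlapped was Tek and Ptprb. Tek minus Ptprb was -0.25, 0.18 and -0.17 in Ckit+ and -0.09, -0.04 and -0.12 in Ckit- replicates 1, 2 and 3. The populations differed in it by 0.0015 with a pooled SD of 0.16 (exact permutation p = 1), and with 1 array left out by between -0.13 and 0.09.

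The receptor pair was compared in the same way. Tek minus Tie1 was 0.18, -0.93 and -0.96 in Ckit+ and 0.60, 0.77 and 0.34 in Ckit- replicates 1, 2 and 3. The populations differed in it by -1.14 (pooled SD 0.48), with Ckit+ replicate 1 nearest to the other population. Without any 1 array this value ran from -1.51 to -0.94.

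Within the ligand pair, Angpt1 minus Angpt2 was 1.53, 2.18 and 2.43 in Ckit+ and -0.18, 1.25 and 0.79 in Ckit- replicates 1, 2 and 3. It was higher in Ckit+ cells by 1.43 (pooled SD 0.61). The widest separations were those of Angpt1 from Ptprb and from Tek, at 4.37 each (pooled SD 0.67 and 0.56). Such a value compares the change of 2 probe sets, without a passing test. It does not show that one gene is expressed above the other.

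The genes with the profile most like each member were sought among 17230 named genes, by the root mean square difference between profiles over the 6 arrays after each was centred on its own mean. For Tek the nearest was Ptprb, at 0.13, followed by Cald1, the actin-binding caldesmon gene, at 0.14 and Limch1, an actomyosin regulator, at 0.21. For Ptprb the nearest was Tek, followed by Cybb, which encodes a subunit of the phagocyte NADPH oxidase, at 0.14 and Cald1 at 0.18. Each of Tek and Ptprb was thus the other's closest match.

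For Tie1 the nearest were Gja1, a gap junction connexin gene, at 0.15, the integrin gene Itga9 at 0.17 and the transcription factor gene Klf12 at 0.18. Tie1 itself came in place 116 among the matches of Tek. The nearest to Angpt1 were Fbxo22, Polr2j and Pdlim1, at 0.25, 0.25 and 0.26. Those of Angpt2 were the efflux pump gene Abcb1a, Map4k4 and the G protein subunit gene Gng2, at 0.044, 0.050 and 0.059. A gene with a small difference has many near profiles by this measure.

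Markers of mural and mesenchymal cells and of the platelet lineage were read beside Angpt1, with 4.7% of all genes lower and 2.71% higher. Of 18 mural and mesenchymal markers 8 were lower and 0 higher, or 6 to 9 lower with 1 array left out. Their mean level was 5.28 to 5.32 in Ckit+ and 6.14 to 6.26 in Ckit- cells. By p, Prrx1, a mesenchymal transcription factor gene, led with -2.58, then Pdgfra, a growth factor receptor gene, with -2.15. The brightest, the collagen genes Col1a1 and Col1a2, were at 6.57 and 6.15 in Ckit+ and at 7.03 and 7.21 in Ckit- cells. Of 7 megakaryocyte and platelet markers 3 were lower, or 1 without Ckit+ replicate 1 or Ckit- replicate 2 or 3, with a mean level of 5.70 to 6.05 against 6.54 to 7.75. The platelet chemokine genes Pf4 and Ppbp differed by -3.38 and -3.09, and Pf4 did not pass without Ckit- replicate 2 or 3, nor Ppbp without Ckit+ replicate 1. Treml1, a platelet receptor gene, was at 6.87 and 7.04.

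Markers of blood cells, germ cells and epithelium were read in the same way, beside the 2.71% of all genes that rose and the 4.7% that fell. Of 13 haematopoietic progenitor and leukocyte markers 4 were higher and 0 lower, with a mean level of 7.77 to 7.85 against 7.22 to 7.48. Leaving out any 1 array left 3 of them higher. Myb and Hlf, transcription factor genes of blood progenitors, rose by 1.77 and 1.11, and the bright leukocyte gene Laptm5 was at 9.81 in Ckit+ and 10.28 in Ckit- cells. Of 14 primordial germ cell markers 12 were higher, or 10 to 12 with 1 array left out, with a mean level of 8.16 to 8.41 against 6.84 to 6.95. The meiotic gene Sycp3 and the RNA-binding protein gene Dazl rose by 2.48 and 1.85, and the brightest, Dppa5a and Rhox9, were at 12.03 and 11.74 in Ckit+ and at 10.89 and 10.67 in Ckit- cells. Of 13 macrophage markers 3 were lower, or 1 without Ckit+ replicate 1 and 2 without Ckit+ replicate 2 or 3 or Ckit- replicate 1 or 2. Their mean level was 5.71 to 5.81 in Ckit+ cells and 7.32, 6.36 and 6.22 in Ckit- replicates 1, 2 and 3, and Ptprc was also highest in the first of these, at 9.40, 8.66 and 8.21. The falls included Csf1r, the macrophage growth factor receptor gene, at -1.97, and the protease gene Ctss at -2.05, and the bright adaptor gene Tyrobp, at 9.72 and 10.40, whose call was lost in each of the 6 runs with 1 array left out. Of 10 markers of mesonephric and gonadal epithelium 2 were higher, the epithelial adhesion genes Cdh1 by 1.15 and Epcam by 1.10. The other 8 did not pass and 4 of the 10 had a negative difference. The list median was 0.11, beside 0.07 for all genes. The part of any of these cells in the level of Angpt1 was not tested.

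Other ligands of the family showed little. Of 6 measured genes among the remaining angiopoietin-like genes and Svep1, which encodes a ligand of Tie1, 1 was lower and 0 were higher (limma, median -0.03). Angptl1, a secreted angiopoietin-like factor, differed by -0.87 ± 0.20 (SE, adjusted p = 0.0341, limma) and did not pass without Ckit+ replicate 1 or 3 or any 1 of the Ckit- replicates (adjusted p up to 0.114). Angpt4, the third mouse angiopoietin gene, was at 5.18 ± 0.13 and 5.16 ± 0.14 (SD, n = 3 each) in Ckit+ and Ckit- cells, and is named after its value was seen. The other 5 did not pass, and 7.41% of all genes passed in either direction. The list's mean level was 4.89 to 5.23 in Ckit+ and 5.19 to 5.28 in Ckit- cells, below the array medians. With no detection call, it is not known whether values at that level lie above array background.

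Genes that relay the Tie2 signal inside the cell mostly did not pass either. Of 23 measured adaptors, kinases and effectors 1 was higher and 1 lower (median 0.0013), and 7.41% of all genes passed in either direction. Pik3cb, a catalytic subunit of PI3-kinase, differed by 0.69 ± 0.16 and Tnip2, which encodes the Tie2-binding adaptor ABIN-2, by -0.71 ± 0.16 (SE, adjusted p = 0.0366 and 0.0296, limma). Pik3cb passed only without Ckit+ replicate 3 and Tnip2 only without Ckit- replicate 3 when single arrays were left out. Most of these proteins also serve other receptors.

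Partners of VE-PTP at the junction fell with Ptprb. All 7 measured substrates and junction partners were lower (median -1.15), where 4.7% of all genes were. Of the 7, 2 are also pan-endothelial markers, Cdh5 and Kdr. Kdr was 29.3-fold and Cdh5 25.7-fold lower. Fgd5, an endothelial exchange factor, fell by 1.15, Jup, which encodes plakoglobin, fell by 1.36 and Plcg1, a phospholipase of receptor signalling, fell by 1.03. With 1 array left out 6 or 7 of them passed.

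Among 10 phosphatase genes related to Ptprb by family or by their place in vessels, 4 were lower and 0 higher, beside 4.7% and 2.71% of all genes. Under median centring or quantile normalization 1 (Ptpre) was higher. The fall of Ptprm, a homophilic adhesion phosphatase of endothelium, was the only one larger than that of Ptprb, at 14.5-fold. Ptprg was 3.42-fold lower, Ptprj, a phosphatase of the same R3 family as VE-PTP, 1.78-fold, and Ptprk differed by -0.68. Ptpre, named after its value was seen, stood at 7.49 ± 0.25 in Ckit+ and 6.85 ± 0.11 in Ckit- cells (SD, n = 3 each, adjusted p = 0.0556, limma). Only 2 were lower without Ckit+ replicate 2 or Ckit- replicate 1 or 2. With 1 array left out, Ptprj lost its call in 4 of the 6 runs and Ptprk in 5.

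Integrins that bind angiopoietins and proteases that cut Tie receptors from the surface were read as 1 list. Of 9 measured 6 were lower, 0 were higher and 3 did not pass (median -0.76), against 4.7% lower and 2.71% higher among all genes. Mmp14, a membrane protease, was 6.34-fold lower and Adam10 2.11-fold. Itga5 and Itgb1, which form the fibronectin receptor, were 2.89-fold and 2.16-fold lower, and Itga3 1.69-fold. Between 4 and 5 of the genes passed with 1 array left out, and Itga3 lost its call in 4 of the 6 runs.

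Of 16 transcription factors known at Tie or angiopoietin genes, 8 were lower and 1 higher (median -0.51), beside 4.7% and 2.71% of all genes. By p, Ets2 (4.48-fold lower), Ets1 (4.22-fold) and Elk3 (3.36-fold) were among the first 5. Of the other genes of their ETS class in the list, named after their values were seen, Erg and Fli1 were lower (-1.16 and -0.90). Elf1, Elf2 and Etv2 did not pass, with differences of 0.45, 0.14 and -0.12. Foxc2, a forkhead factor known at Angpt2, was 7.01-fold lower and Foxc1 2.15-fold. The rise was that of Gata2, a factor of blood progenitors and endothelium named after its value was seen, by 1.83-fold (adjusted p = 0.0321, limma). It passed only without Ckit+ replicate 3 when single arrays were left out. The count of falls was 8 in each of these runs.

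**Figure D4:**
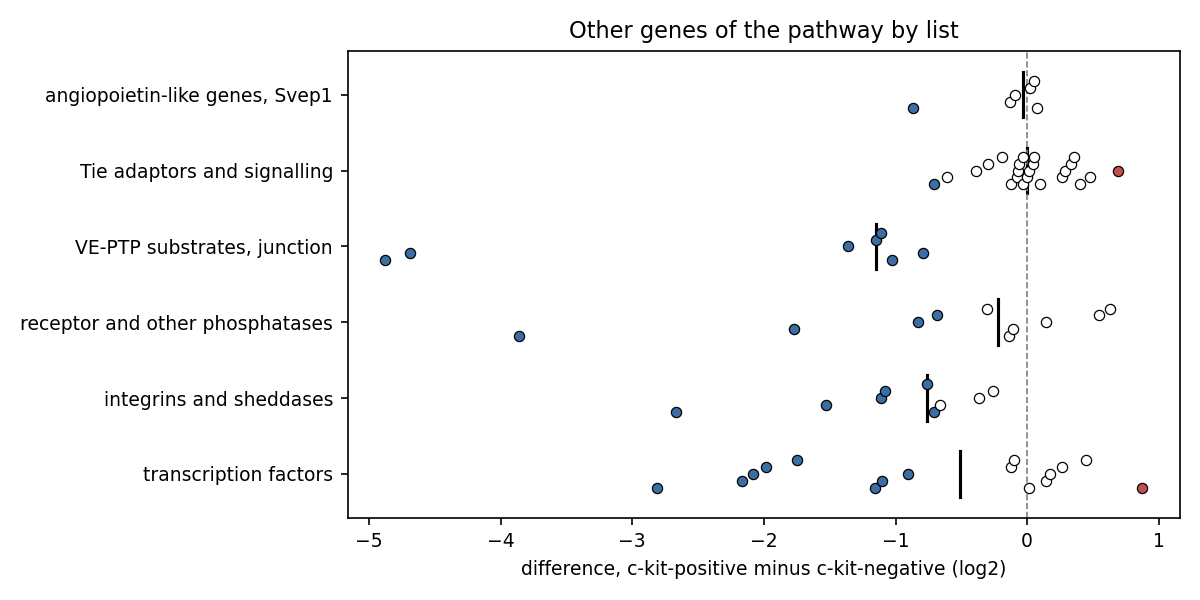
Difference between the populations (Ckit+ minus Ckit-, log2) of each measured gene in 6 lists of the pathway, filled blue where it was lower and red where it was higher at an adjusted p under 0.05 in limma, open otherwise, with a black line at the list median. The 7 junction genes are all filled blue, whereas 21 of the 23 adaptor and signalling genes are open.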

How the data were processed

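From each sort 5 ng of RNA went through whole-transcript amplification and biotin labelling, per the labels' protocols. The table deposited by the authors holds RMA values, per the submitters' processing notes, on a scale recognised as log2 by its range; for the version, probe set level and build the sources used here give nothing. Of 34760 probe sets, 21640 had 1 gene symbol, 1321 several and 11799 were unlisted. They covered 19937 genes, taking the probe set with the highest mean where a gene had several. Amplification from little RNA can distort ratios.

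Differences between populations came from limma (3.58.1, R 4.3.3), with no filter and no block. Same-numbered arrays hardly deviated together, so the numbers were not used as pairs. The test was checked on simulated arrays. Members, lists, motifs and tests were chosen with earlier results of these data known. The text names the members, the gate genes, the 3 nearest profiles of each member and, from each pathway list, up to 5 genes past the threshold with the smallest p, and from each marker list the 2 genes of highest mean and the 2 of smallest p, as values. List genes without a probe set of 1 symbol were not analysed here. Alternatives covered scaling, filters, probe sets, the variance prior, array weights, a block, a stricter threshold and leaving out each array. Figures were drawn with matplotlib.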

Additional observations from a re-analysis of the deposited data

How the results depend on the processing

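Under the alternatives run, the direction of all 5 member differences held, and Tek and Ptprb passed in each. With 1 array left out, the differences ran from -3.53 to -3.31 (Tek), -2.48 to -1.98 (Tie1), 0.56 to 1.24 (Angpt1), -0.63 to -0.37 (Angpt2) and -3.58 to -3.29 (Ptprb). Tie1 did not pass without variance moderation (-2.31, adjusted p = 0.0760, limma's unmoderated model). With the replicate number as a block Angpt1 passed (0.93, adjusted p = 0.0190, limma); over its alternatives its adjusted p ran from 0.0190 to 0.415. Same-numbered arrays correlated at 0.00071, 0.0239 and 0.0590 in their deviations from the group means. The last, of replicates 3, was the highest of all pairings, but Ckit+ replicate 1 correlated best with Ckit- replicate 2 (0.0359). All were weak, so the samples were taken to share only a number. The block changed no call of the other 4 members and gave 476 genes higher and 879 lower. Leaving out the dimmest 50 percent of genes removed Angpt2.

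Relative to the median of the endothelial panel Tek was at -1.25, Angpt2 at 1.69 and Tie1 at -0.11. The count of genes higher was 202 over all probe sets, 66 without variance moderation, 131 at an adjusted p under 0.01 and 276 to 369 with 1 array left out, beside 540. The count lower was 216 without moderation, 499 at 0.01 and 670 to 745 with 1 array left out, beside 937.

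Pathway lists moved as follows. Without moderation the falls numbered 4 of the VE-PTP partners, 1 of the phosphatases, 3 of the integrins and sheddases, 4 of the transcription factors and 3 of the other receptor kinases. The phosphatase falls were 2 over all probe sets, with the replicate block and at 0.01, and 2 to 3 with 1 array left out. A phosphatase rise, Ptpre, appeared (1) under median centring, quantile normalization, both filters on dim genes and array weights, and 0 to 1 with 1 array left out. The 1 angiopoietin-like fall became 0 without the dimmest 50 percent of genes. That fall, the 1 rise and 1 fall among adaptors, and the 1 rise among transcription factors and among other receptor kinases became 0 over all probe sets, without moderation and at 0.01. Both adaptor calls became 0 with the replicate block. With 1 array left out these counts ran from 0 to 1, other than the receptor kinase rise, which stayed at 1, and the integrin falls from 4 to 5. Precision is limited by the number of arrays. For Angpt2, and for Tek, Tie1 and Ptprb in Ckit+ cells, it is also limited by levels at or near the array medians with no detection call. That limit also bears on the close match of Tek and Ptprb.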

Other observations

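Other receptor tyrosine kinases were read as company for Tek and Tie1. Of 24 measured, 9 were lower and 1 higher in Ckit+ cells (limma, median difference -0.57, beside 0.07 over all genes). Among all genes 4.7% were lower and 2.71% higher. In the list only Kdr fell further than Tek. Flt1 and Flt4, the remaining VEGF receptor genes, differed by -3.00 and -2.74, Pdgfra by -2.15 and Ephb4, the venous ephrin receptor gene, by -1.40. The rise was that of Flt3, a cytokine receptor of blood progenitors named after its value was seen, by 0.88 ± 0.16 (SE, adjusted p = 0.0128, limma). With 1 array left out 7 to 8 were lower and Flt3 passed each time.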
